A study of Mus musculus with 9 samples.

Results

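Integrins are the adhesion receptors by which natural killer (NK) cells hold on to other cells and to matrix, and 10 integrin subunit genes other than the CD11b gene Itgam were followed here. The genes were Itgal, Itgax, Itgb2, Itga1, Itga2, Itgav, Itgb1, Itga4, Itgae and Itgb7. They were taken by symbol from their mouse Entrez identifiers, and all 10 were found among the 27179 genes counted in each library. Expression was measured by RNA sequencing of splenic NK cells, the mice being C57BL/6. For 7 days, Id2-null cells and wild-type (WT) cells were cultured with the cytokine interleukin-15, giving 3 libraries per genotype. A further 3 libraries, 1 each, are of wild-type populations named Immature, M1 and M2, which were sorted and not cultured. ID2 is a helix-loop-helix protein that binds E proteins and keeps them off DNA. The sources used here do not give how Id2 was deleted, which surface markers defined the sorted populations, or the ages and numbers of mice. The labels number the cultured samples as the first 6 of 9, and this reading of the listed order applies to every comparison of cultured with sorted cells.

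An integrin is a pair of an alpha and a beta chain, and neither chain reaches the cell surface well without the other. The beta 2 chain (CD18) pairs with CD11a, CD11b, CD11c or CD11d in leukocytes, and CD11a with beta 2 forms LFA-1, which binds ICAM proteins when an NK cell grips its target. The beta 1 chain (CD29) pairs with collagen, laminin and fibronectin receptors, among them CD49a and CD49b. The CD49d chain pairs with beta 1 to bind VCAM-1, or with beta 7 to bind MAdCAM-1 of gut vessels, and CD103 with beta 7 binds E-cadherin of epithelium.

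Total counts ran from 4128414 to 4831831 per library. Levels below are CPM, which are counts scaled to a common library size, adjusted by the trimmed mean of M-values (TMM) over all 9 libraries. Where no read was counted, the level may still be up to 3 counts, or 0.621 to 0.727 CPM, by counting error alone. Id2 itself had 394.8 ± 17.6 CPM in WT cultures and 15.1 ± 7.83 CPM, or 3.82% of that, in Id2-null cultures (SD, n = 3 each). All 10 NK markers had counts in every group, but their sum was lower in Id2-null cultures, at 7312 to 8043 CPM against 9907 to 13040 CPM in WT. Of the 10, only Gzma, which encodes granzyme A, passed the test, and it fell, with 156.0 to 735.6 CPM in Id2-null against 2974 to 4935 CPM in WT cultures (edgeR adjusted p = 0.0226). The Gzma call was lost without Id2-null replicate 1 (0.111), without WT replicate 1 or 2 (0.104 and 0.0731) and with robust estimation of the spread (0.083). Prf1 and Tbx21 had log2 fold changes of -1.53 and -0.60 (adjusted p = 0.162 and 0.0643, and 0.00844 and 0.014 with the replicate number as a block), while Ncr1 and Klrb1c had 0.33 and 0.022 (0.463 and 0.971, edgeR). Klrk1, Eomes, Il2rb and Klrd1 also had positive log2 fold changes, of 0.269, 0.209, 0.18 and 0.049, and Nkg7 had -0.158. The adjusted p of these genes ran from 0.48 to 0.945 (edgeR). The lower sum was therefore not a fall of every NK marker. The part of these marker differences in the integrin results was not tested. Xist stood at 657.9 to 876.3 CPM in Id2-null against 0.209 to 1.16 CPM in WT cultures, and the Y-linked Ddx3y at 0.221 to 0.635 and 71.9 to 78.6 CPM, so sex and genotype cannot be told apart in the cultures. The sorted libraries held both, with Xist at 90.7 to 127.7 CPM and Ddx3y at 37.2 to 46.5 CPM. The labels do not say that replicates are separate mice or cultures, so the p-values cover only how far these libraries scatter, and that scatter may be technical.

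Among the 10 integrin genes, Itga1 and Itgb2 fell and Itgae rose in Id2-null cultures, and the other 7 did not pass the test (edgeR's quasi-likelihood test, with Benjamini-Hochberg adjustment over all 11022 genes tested and a threshold of 0.05). All 10 passed the filter on low counts. Of all genes tested, 3.36% were called, 1.84% higher and 1.52% lower. The median log2 fold change was -0.10 over the 10 genes and 0.01 over all genes tested. In bulk RNA, fewer cells that carry a transcript and less transcript per cell cannot be told apart.

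**Figure D1:**
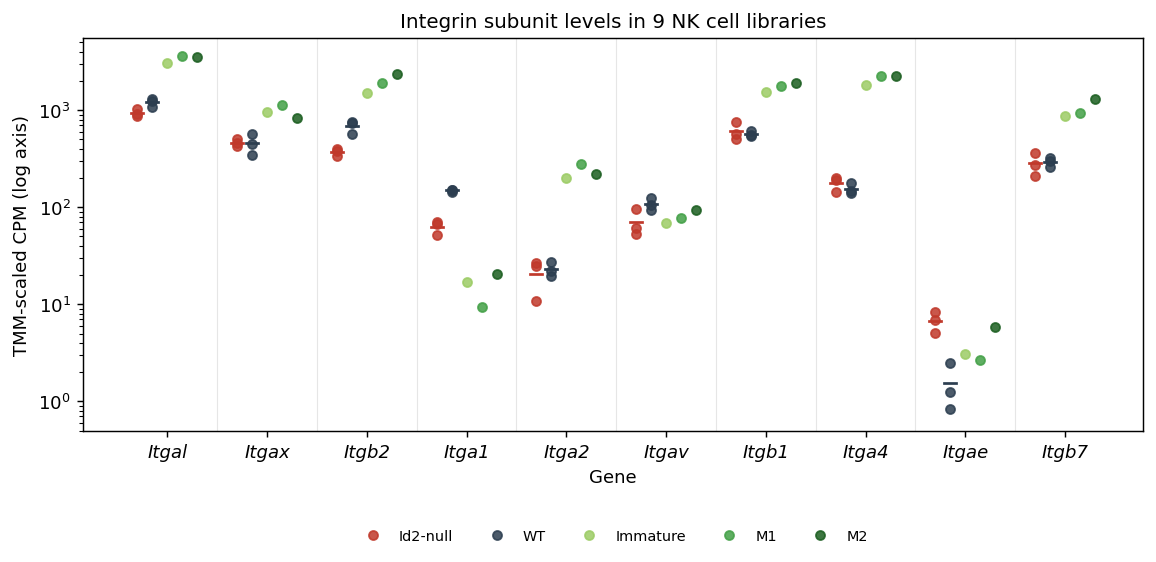
TMM-scaled CPM on a log axis for the 10 integrin genes, with 1 point per library and a bar at the mean of each genotype's 3 cultures. The genotypes stand apart for Itga1, Itgb2, Itgae and Itgal, and the sorted libraries (green) lie above both genotypes for Itgal, Itgax, Itgb2, Itga2, Itgb1, Itga4 and Itgb7 and below them for Itga1.

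Itgb2 (Entrez 16414, chromosome 10, positions 77530329 to 77565708 in GRCm38) encodes the beta 2 chain that every CD11 integrin needs. Its level was 382.9, 395.1 and 335.3 CPM in Id2-null replicates 1 to 3 and 748.6, 731.9 and 566.5 CPM in WT replicates 1 to 3. The lowest WT library stood above the highest Id2-null library. Itgb2 fell to 54.4% of the WT mean, or 371.1 ± 31.6 against 682.3 ± 100.7 CPM (SD, n = 3 each), with a log2 fold change of -0.87 (SE 0.15, 95% interval -1.21 to -0.53, adjusted p = 0.0195, edgeR). Its adjusted p was 0.0859 and 0.073 when Id2-null replicates 1 and 2 were left out in turn, and 0.102 and 0.0905 when WT replicates 1 and 2 were, so that the call was lost in each case.

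Itgal (chromosome 7, positions 127296139 to 127335137), which encodes the CD11a chain of LFA-1, stood at 874.7, 920.7 and 1029 CPM in Id2-null against 1305, 1247 and 1091 CPM in WT cultures. The genotypes did not overlap, as with Itga1, Itgae and Itgb2, against 20.4% of all genes tested. The difference, -0.36 on the log2 scale (95% interval -0.66 to -0.061), did not pass the correction (edgeR adjusted p = 0.243). Without replicate 3 of both genotypes it did, at -0.50 and adjusted p = 0.0144. Itgax (chromosome 7, positions 128129526 to 128150657) encodes CD11c, a chain that mouse NK cells share with dendritic cells. It stood at 504.4, 428.5 and 457.6 CPM in Id2-null against 450.8, 342.2 and 572.3 CPM in WT cultures. The values overlapped, and the 95% interval of the log2 fold change ran from -0.41 to 0.475 (edgeR adjusted p = 0.97).

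Itga1 (Entrez 109700) and Itga2 (Entrez 16398) encode the collagen-binding chains CD49a and CD49b. CD49a marks tissue-resident NK cells and related innate lymphocytes, and CD49b is the antigen of the DX5 antibody used to stain mouse NK cells. Both genes lie on the minus strand of chromosome 13, Itga1 at positions 114958079 to 115101964 and Itga2 at 114833081 to 114932100. Their promoters are shown because these neighbours had opposite patterns between cultured and sorted cells, and that of Itga4 because its level differed most between those cells. Each is 250 bases before to 50 after a transcript start, 5′ to 3′ on the gene's strand, from RefSeq for GRCm38.p6. The windows are chr13:115101915-115102214 for Itga1, chr13:114932051-114932350 for Itga2 and, on the plus strand, chr2:79255176-79255475 for Itga4. Capitals mark the E-box CAGCTG, a sequence of the kind that E proteins bind.
Itga1: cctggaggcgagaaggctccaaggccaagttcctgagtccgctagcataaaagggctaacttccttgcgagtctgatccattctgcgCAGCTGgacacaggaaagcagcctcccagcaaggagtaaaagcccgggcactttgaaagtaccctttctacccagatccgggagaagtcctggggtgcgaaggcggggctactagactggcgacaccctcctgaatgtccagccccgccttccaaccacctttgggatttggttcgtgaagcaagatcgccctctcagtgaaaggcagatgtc
Itga2: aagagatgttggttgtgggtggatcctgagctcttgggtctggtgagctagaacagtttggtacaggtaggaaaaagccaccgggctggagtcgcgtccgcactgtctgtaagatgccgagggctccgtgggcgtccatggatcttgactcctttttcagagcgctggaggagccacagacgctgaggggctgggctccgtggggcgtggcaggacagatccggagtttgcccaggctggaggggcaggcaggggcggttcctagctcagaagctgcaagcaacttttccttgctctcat
Itga4: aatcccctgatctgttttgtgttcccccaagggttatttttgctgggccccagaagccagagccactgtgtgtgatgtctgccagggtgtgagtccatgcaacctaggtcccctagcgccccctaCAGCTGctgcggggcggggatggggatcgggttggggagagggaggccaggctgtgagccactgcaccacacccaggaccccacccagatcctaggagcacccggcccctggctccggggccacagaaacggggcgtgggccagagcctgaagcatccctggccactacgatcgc

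The E-box begins 163 bases before the start in Itga1 and 125 bases before it in Itga4. Promoters were found for 7 of the 10 genes (Itga1, Itga2, Itga4, Itgav, Itgax, Itgb1 and Itgb7). CAGCTG and CAGGTG were searched on both strands. CAGCTG was in 3 of the 7, the third being Itgax, and CAGGTG in 0 of the 7, so the motifs overlapped in none of these windows. Either motif was in 33.0% of all 32817 RefSeq windows of the same length, CAGCTG in 16.3% and CAGGTG in 20.2%. A match is a description of these letters and not a site of binding.

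The level of Itga1 was 67.0, 70.0 and 51.7 CPM in Id2-null against 152.2, 144.9 and 149.2 CPM in WT cultures. Its WT values lay close together, and all were more than 2-fold above the highest Id2-null value. Itga1 fell from a WT mean of 148.8 ± 3.67 CPM to 62.9 ± 9.83 CPM (SD, n = 3 each), with a log2 fold change of -1.24 (SE 0.14, 95% interval -1.55 to -0.92, adjusted p = 0.0036, edgeR). It was called under each of the 14 alternatives run, with adjusted p from 2.08e-10 to 0.0306. The summed level of 6 other markers of type 1 innate lymphoid cells, which also carry CD49a, was 425.1 to 627.5 CPM in Id2-null against 344.7 to 529.1 CPM in WT cultures, with none of the 6 at 0. Its members went different ways: Cxcr6 fell, with 2.66 to 6.84 CPM against 38.7 to 62.6 CPM in WT (log2 fold change -3.34, adjusted p = 0.00226) and so did Cd200r1, with 3.53 to 5.52 against 26.1 to 43.2 CPM (-2.85, adjusted p = 0.00199, edgeR). Il21r, the largest part of the sum in Id2-null cultures, rose, with 266.0 to 333.7 against 100.1 to 133.4 CPM (1.35, adjusted p = 0.00452, edgeR). Tnfsf10, Inpp4b and Rora did not pass the test, though Tnfsf10 was called lower with the replicate block (-0.445, adjusted p = 0.0391, edgeR). Cxcr6, Cd200r1 and Il21r were called under each of the 14 alternatives. The sum of 6 stromal and endothelial markers was 38.2 to 60.2 CPM in Id2-null against 137.4 to 166.1 CPM in WT libraries. It was nearly all Pecam1, an adhesion molecule of endothelium that leukocytes carry as well, which fell (log2 fold change -1.63, edgeR adjusted p = 0.00339), while Cdh5 and Pdgfrb had 0 counts in all 6 cultures. The part of such cells in the Itga1 difference was not tested.

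Itga2 was low in the cultures of both genotypes, at 26.9, 24.5 and 10.8 CPM in Id2-null against 27.5, 21.9 and 19.7 CPM in WT libraries. The values overlapped and the 95% interval of the log2 fold change was -0.90 to 0.61 (edgeR adjusted p = 0.895). Id2-null replicate 3 was the lowest, and without it the fold change turned from -0.15 to 0.16. Itgav (chromosome 2, positions 83722303 to 83806917) encodes CD51, a chain for RGD-bearing matrix proteins and latent TGF-beta. It stood at 61.5, 52.9 and 96.5 CPM in Id2-null against 104.5, 93.8 and 124.5 CPM in WT cultures, with the highest Id2-null value just above the lowest WT value. Its log2 fold change of -0.61 (95% interval -1.14 to -0.073) did not pass the correction (edgeR adjusted p = 0.275). Itgav was called lower with the replicate number as a block (-0.64, adjusted p = 0.0314), where 6.31% of all genes tested were called, and without Id2-null replicate 3 (adjusted p = 0.0106) or replicate 3 of both genotypes (0.00147). Itgb1 (chromosome 8, positions 128685654 to 128733579), the shared beta 1 chain, stood at 574.8, 508.7 and 751.2 CPM against 604.9, 536.3 and 553.6 CPM in WT. The genotypes overlapped, with a log2 fold change of 0.12 and an interval from -0.26 to 0.50 (edgeR adjusted p = 0.807). Without Id2-null replicate 3, the highest library, it was -0.059.

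**Figure D2:**
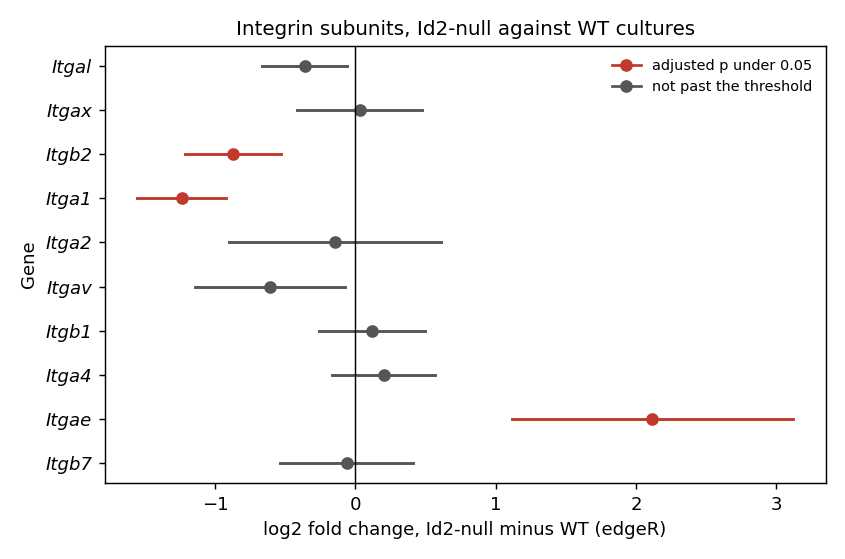
Log2 fold changes of Id2-null against WT cultures (edgeR, n = 3 each) as points with 95% intervals as lines, red where the adjusted p is under 0.05. Itga1 and Itgb2 lie to the left at -1.24 and -0.87, Itgae to the right at 2.12, and the intervals of Itgal and Itgav leave out 0 without passing the correction over all genes.

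Itgae (Entrez 16407, chromosome 11, positions 73090505 to 73147449), which encodes CD103, had the lowest level per length of the 10 genes in every group. Its counts were 31, 24 and 41 in Id2-null and 4, 6 and 13 in WT cultures, or 6.84, 5.08 and 8.38 against 0.834, 1.25 and 2.51 CPM. Every Id2-null library stood above every WT library. Itgae rose to 6.77 ± 1.65 CPM from a WT mean of 1.53 ± 0.870 CPM (SD, n = 3 each), with a log2 fold change of 2.12 (SE 0.43, 95% interval 1.12 to 3.12, adjusted p = 0.043, edgeR). The adjusted p was 0.0186 with the replicate block, 0.00672 with DESeq2 and 0.0502 with limma voom. It was 0.149 and 0.0851 without Id2-null replicates 1 and 2, and 0.176 and 0.17 without WT replicates 1 and 2, so that the call was lost with voom and in these 4 cases. CD103 is also carried by T cells and by a class of dendritic cells. The summed level of 8 T cell markers was 363.7 to 486.7 CPM in Id2-null against 156.2 to 326.5 CPM in WT cultures, with Cd4 at 0 counts in all 6 and Cd8a at 3 to 7 counts. Cd3d and Cd3g, which encode chains of the T cell receptor complex, stood at 87.9 to 164.0 and 80.1 to 135.2 CPM in Id2-null and at 13.7 to 50.9 and 17.9 to 71.9 CPM in WT libraries, while Cd3e stood the other way, at 9.48 to 24.5 and 16.9 to 82.6 CPM. Their log2 fold changes were 2.06, 1.57 and -1.40 (adjusted p = 0.0689, 0.195 and 0.402, and 0.0026, 0.0218 and 0.0327 with the replicate block, edgeR). Cd3d was also called with DESeq2 (0.0278) and limma voom (0.0454). Without replicate 3 of both genotypes, Cd3d, Cd3g and Cd3e had adjusted p = 0.000217, 0.00768 and 0.0469 (edgeR). Cd28 stood at 161.5 to 184.4 CPM in Id2-null against 100.9 to 137.0 CPM in WT (log2 fold change 0.512, adjusted p = 0.122, and 0.0332 with the replicate block, edgeR). The summed level of 7 dendritic cell markers was 2.12 to 11.04 CPM in Id2-null and 5.42 to 8.97 CPM in WT cultures, with Clec9a, Siglech and Cd209a at 0 counts in all 6. Xcr1 stood at 0 to 0.882 CPM in Id2-null against 2.70 to 5.84 CPM in WT (log2 fold change -3.62, adjusted p = 0.082, and 0.0335 with the replicate block, edgeR). Zbtb46 and Batf3 stood highest among the cultures in Id2-null replicate 3, at 6.13 and 4.70 CPM. The part of these cells in the Itgae difference was not tested.

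Itga4 (chromosome 2, positions 79255426 to 79333114), the gene of CD49d, stood at 198.3, 145.0 and 189.9 CPM in Id2-null against 178.9, 146.4 and 139.7 CPM in WT cultures. Itgb7 (chromosome 15, positions 102215994 to 102233405) stood at 365.5, 272.3 and 209.2 CPM in Id2-null against 301.7, 324.0 and 260.8 CPM in WT cultures. Both genes overlapped between genotypes. The 95% intervals of the log2 fold changes were -0.17 to 0.57 for Itga4 (adjusted p = 0.637) and -0.53 to 0.41 for Itgb7 (adjusted p = 0.934, edgeR). In Itgb7 the Id2-null libraries were spread more widely than the WT libraries, and without Id2-null replicate 3, the lowest, the fold change turned from -0.061 to 0.11.

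Levels were set side by side between genes only per length, as TMM-scaled CPM per kilobase of the deposited gene length. In WT cultures the order of the means was Itgb2 (238.4 ± 35.2), Itgal (232.4 ± 21.2), Itgb1 (134.7 ± 8.51), Itgax (113.1 ± 28.6), Itgb7 (110.5 ± 12), Itga1 (24.9 ± 0.613), Itga4 (15.8 ± 2.13), Itgav (15.3 ± 2.21), Itga2 (5.46 ± 0.961) and Itgae (0.335 ± 0.190) per kilobase (SD, n = 3). Itgb2 and Itgal, then Itgb1, Itgax and Itgb7, and then Itga4 and Itgav were neighbours in that order that lay within their spread of each other. In Id2-null cultures the order began with Itgal (180.2 ± 15.1), Itgb1 (145.8 ± 29.9) and Itgb2 (129.7 ± 11.04), with the last 2 within their spread of each other. Itga1 there was 10.5 ± 1.64 per kilobase, next to Itgav at 9.97 ± 3.27, and below Itga4 at 18.1 ± 2.92. In the sorted libraries Itgb2 and Itgal led with means of 671.2 and 655.8 per kilobase, followed by Itgb1 at 416.5, Itgb7 at 388.5, Itgax at 243.3 and Itga4 at 212.5, while Itga2 was at 55.2 and Itga1 at 2.60.

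For the chains that share a beta partner, the balance of transcripts was read per length within each library. The 4 alpha chains that pair with beta 2 (Itgal, Itgax, Itgam and Itgad) summed to 2.37, 2.16 and 2.70 times the level of Itgb2 in Id2-null cultures and to 1.5, 1.35 and 1.82 times in WT cultures. The genotypes did not overlap, and the Immature, M1 and M2 libraries, at 1.63, 1.84 and 1.54, lay among or just above the WT values. With 3 libraries against 3 the exact permutation test cannot go below a two-sided p of 0.1, so no test was made of this ratio. Itgal made up 52.9 to 69.3% of these alpha transcripts in the 9 libraries. The share of Itgam was 0.152 to 3.89% in Id2-null cultures, 2.20 to 6.90% in WT cultures, 1.36% in Immature, 18.7% in M1 and 28.8% in M2 cells.

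Among 7 alpha chains that pair with beta 1, Itga1 made up 28.9, 31.1 and 30.7% in WT cultures and 17.0, 20.7 and 14.9% in Id2-null cultures. In the Immature, M1 and M2 libraries it made up 1.09, 0.477 and 1.05%, while Itga4 made up 70.4, 68.6 and 70.5% and Itga2 18.2, 19.96 and 16.2%. Some of these chains, such as CD49d and CD51, also pair with other beta chains, so the shares are of transcripts and not of pairs. Of the beta 7 partners, Itga4 made up at least 91.3% in every library, and Itgae 6.90 to 8.67% in Id2-null, 0.993 to 3.71% in WT and 0.256 to 0.552% in sorted cells. The summed alpha partners stood at 0.125 to 0.270 times the level of Itgb7 in the cultures and at 0.465 to 0.649 times in the sorted libraries.

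**Figure D3:**
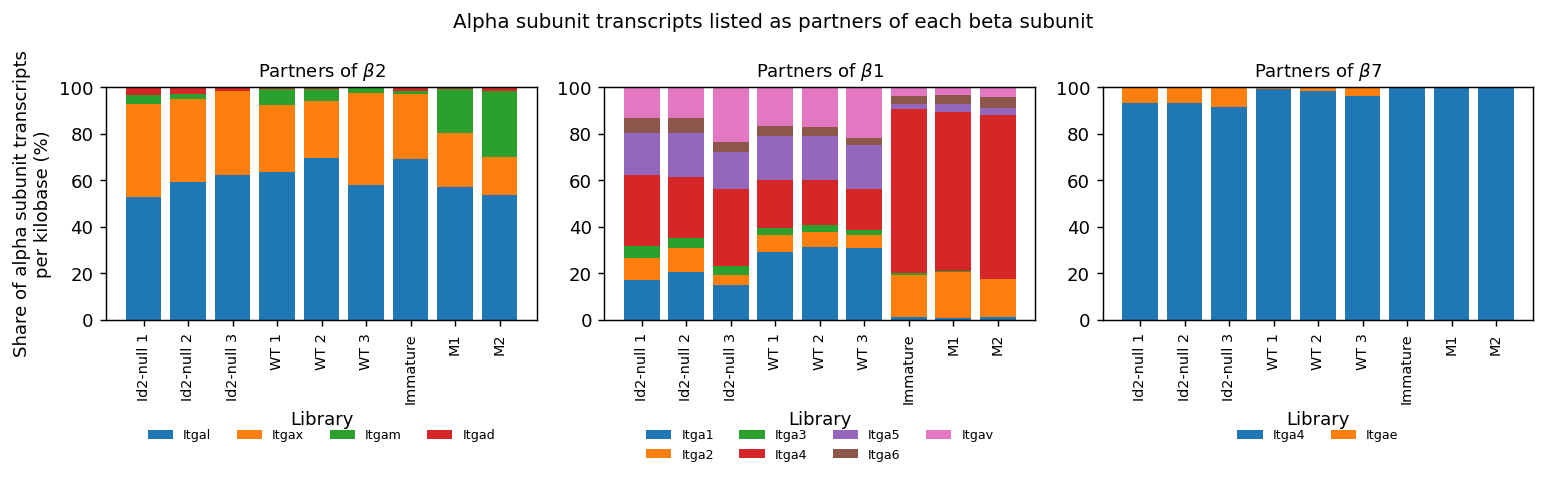
Stacked bars give, for each of 9 libraries, the percent of alpha subunit transcripts per kilobase taken by each alpha chain that pairs with beta 2, beta 1 or beta 7. Itga4 takes 68.6 to 70.5% of the beta 1 partners in the sorted libraries and 17.5 to 33.2% in the cultures, and Itgam is largest in M1 and M2.

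The single libraries of Immature, M1 and M2 cells allow no test between these populations. Ratios here carry exact 95% intervals that cover counting error only, and not the choice of scaling. With library sizes alone as scaling, the M2 to Immature ratio left its interval for Itga4, Itgal, Itgax, Itgb1, Itgb2 and Itgb7. Its log2 value moved from 0.21 to 0.113 for Itgal and from 0.661 to 0.565 for Itgb2, and no gene changed direction. None of the 10 integrin genes was more than 2-fold apart between Immature and M2 cells, where 12.3% of the genes with at least 20 counts in the higher library were (6.57% higher in M2 and 5.71% lower). The same held for M1 against Immature for the 9 of them with enough counts, where 6.21% of genes were apart (1.91% higher in M1 and 4.31% lower). Itgb2 was 1500.7, 1888.8 and 2373.2 CPM in Immature, M1 and M2 cells, and was thus 1.58 times as high in M2 as in Immature (1.53 to 1.63). Itgb7 was 862.8, 936.1 and 1317.9 CPM, 1.53 times as high in M2 (1.462 to 1.595). For both genes M1 lay between the others. The M2 library also held the most transcripts of other blood cells: the sum of 8 myeloid markers was 188.3, 207.8 and 925.1 CPM and that of 6 B cell markers 22.3, 26.4 and 85.7 CPM, with no marker of either list at 0 over the 3 libraries. Myeloid cells carry beta 2 integrins too, and their part in these ratios was not tested.

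Itga4 and Itgal were lowest in Immature cells and nearly level in M1 and M2. Itga4 stood at 1798.8, 2229.2 and 2239.7 CPM, 1.245 times as high in M2 as in Immature (1.207 to 1.285). Itgal stood at 3085.4, 3625.4 and 3568.4 CPM, 1.16 times as high in M2 (1.13 to 1.19). Itgb1 stood at 1551.7, 1779.0 and 1909.8 CPM, 1.23 times as high in M2 (1.19 to 1.27). The sum of the 8 T cell markers was highest in Immature cells, at 707.8 CPM against 221.1 and 213.1 CPM in M1 and M2, and its part in these levels was not tested. Itga2 and Itgax had their highest value in M1. The level of Itga2 was 199.8, 278.2 and 220.9 CPM, and that of Itgax 964.4, 1133.5 and 839.7 CPM, so that Itgax was 0.871 times its Immature level in M2 (0.831 to 0.912).

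The low transcripts were counted less precisely. Itga1 had 66, 39 and 81 counts in Immature, M1 and M2, and its M2 level was 2.16 times its M1 level (1.46 to 3.25) but only 1.21 times its Immature level, with an interval from 0.860 to 1.69. Itgae had 12, 11 and 23 counts. Its M2 level was 1.88 times its Immature level, with an interval from 0.899 to 4.15 that reaches past 2-fold. Itgae was 2.17 times as high in M2 as in M1 (1.02 to 4.93). Itga1 and Itgae were the 2 genes of the 10 that were over 2-fold apart between M1 and M2, both higher in M2, where 6.0% of all genes were apart and 4.36% higher. Itgav stood at 68.3, 77.7 and 93.2 CPM, 1.36 times as high in M2 as in Immature (1.163 to 1.603). For comparison, the CD11b gene Itgam stood at 54.2, 1061.1 and 1723.4 CPM in the same libraries, 31.8 times as high in M2 as in Immature.

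Between WT cultures and the sorted libraries the integrin genes differed in both directions. The sorted values are of 3 populations and not replicates, and culture, population and the sex of the cells differ together, so no test was made. The values stood apart without overlap for all 10 genes, against 65.5% of the genes kept. Of the 10, 8 were higher in every sorted library (33.6% of all genes were) and Itga1 and Itgav were lower (31.9%). Itga4 differed most, with a sorted mean of 2089 CPM against 155.0 ± 21.0 CPM in WT cultures (SD, n = 3), a ratio of 13.5. For Itga2 the means were 233.0 and 23.0 CPM, a ratio of 10.1, and even the lowest sorted library was 7.26 times the highest WT culture.

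For Itgb7, Itgb1, Itgal, Itgb2 and Itgax the sorted mean was 3.516, 3.092, 2.822, 2.815 and 2.152 times the WT mean. For Itgae it was 2.51 times, but the lowest sorted value of 2.66 CPM was only 1.06 times the highest WT value. Itga1 stood the other way, with a WT mean 9.56 times the sorted mean of 15.6 CPM. The Itgav difference was small, since its lowest WT value of 93.8 CPM was 1.01 times the highest sorted value, and with library sizes alone as scaling 9 of the 10 genes did not overlap. The myeloid markers Lyz2, Adgre1, S100a8, S100a9 and Mpo and the platelet markers Pf4 and Ppbp had 0 counts in all 6 cultures and 6 to 971 counts in each sorted library. The part of such cells in the levels of Itga4, Itga2, Itgb2 and Itgax in the sorted libraries was not tested.

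Which genes ran most like an integrin gene over the 9 libraries was read from the root mean square difference of mean-centred log2(CPM + 1) values, as a description with no test. It was taken for the 7 genes whose log2 level spanned at least 2, among 8770 genes that reached 20 CPM. Itgal ran closest to Cd84 (a root mean square difference of 0.12), Scrn3 and Rnf130. Itgb2 ran closest to Fzd5 (0.19), Arhgap26 and Rasl12, and Itga1 to Iqgap3 (0.27), Slc43a3 and Capg. For Itgb7 the closest gene was another integrin, Itga6 (0.155), which encodes a laminin-binding chain, followed by Chpt1 and Cd48. Itga6 stood at 14.8 ± 3.25 CPM in Id2-null against 13.7 ± 2.45 CPM in WT cultures (SD, n = 3 each) and at 38.4, 53.2 and 65.6 CPM in Immature, M1 and M2 cells. For Itga4 the smallest difference was with Hspa1a (0.255), but that gene had 0 to 0.417 CPM in the cultures and 10.24 to 20.6 CPM in the sorted libraries, so its closeness is set by the added 1. Next came St3gal1 (0.257), at 19.8 to 26.6 CPM in the cultures and 202.7 to 257.5 CPM in the sorted libraries. Abcg1 followed (0.264). Itga2 ran closest to Jun (0.28), Smpdl3a and Ccrl2, and Itgae to Plxnb2 (0.28), Rhoh and Slc43a2. Itgae itself stood at only 0.834 to 8.38 CPM in the cultures, so the added 1 shapes its match as well.

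The other 16 integrin subunit genes were taken as a list, of which 7 passed the filter on low counts, and 1 rose in Id2-null cultures and 0 fell, which is 14.3% against 3.36% of all genes tested. Itgad, which encodes CD11d, rose from 13.3, 8.55 and 6.55 CPM in WT to 45.0, 33.6 and 20.2 CPM in Id2-null cultures. The genotypes did not overlap, and the log2 difference of 1.80 had an SE of 0.36 and an edgeR adjusted p of 0.0382. The Itgad call was lost with limma voom (adjusted p = 0.0646), without Id2-null replicate 1 or 2 (0.138 and 0.122) and without WT replicate 1, 2 or 3 (0.0777, 0.153 and 0.116). Itgad lies with Itgal, Itgam and Itgax on chromosome 7 and is a close relative of them, so reads shared between these genes are uncertain. Itgam, the remaining beta 2 partner, stood at 57.6, 31.95 and 2.25 CPM in Id2-null against 126.8, 85.9 and 37.2 CPM in WT cultures (adjusted p = 0.502, edgeR), and replicate 3 was the lowest in both. Without replicate 3 of both genotypes Itgam was called lower (adjusted p = 0.000703), as was Itgav, where 9.16% of all genes tested were called. Itga5, the fibronectin receptor chain, stood at 46.3 ± 6.16 against 67.7 ± 4.06 CPM (adjusted p = 0.0839) and passed with the replicate block (adjusted p = 0.0433, edgeR). Itgb3, which pairs with CD51, stood at 180.1 to 403.3 CPM in the cultures and 35.3 to 94.9 CPM in the sorted libraries, with adjusted p = 0.626 between genotypes.

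Integrins are switched on from inside the cell, where the GTPase RAP1 and its partners bring talin and kindlin to the beta chain. Of 38 genes for this switch and its adaptors 32 were tested, and 2 rose and 0 fell in Id2-null cultures, which is 6.25% against 3.36% of all genes. Rasgrp2, which encodes the RAP1 activator CalDAG-GEFI, stood at 253.6, 248.6 and 99.6 CPM in Id2-null against 29.4, 38.8 and 24.9 CPM in WT cultures. Id2-null replicate 3 was the lowest of its group, yet above every WT library. The log2 difference of 2.70 had an SE of 0.37 and an edgeR adjusted p of 0.00922, and the adjusted p was 0.0735 without WT replicate 1. Cyth1, which encodes cytohesin-1, a regulator of LFA-1, rose to 79.5 ± 10.3 CPM from a WT mean of 46.8 ± 5.59 CPM, by 0.77 on the log2 scale (edgeR adjusted p = 0.0339). That call was lost with library sizes alone as scaling (adjusted p = 0.0527) and without Id2-null replicate 1 (0.141) or WT replicate 1, 2 or 3 (0.161, 0.135 and 0.0602).

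With the replicate block 5 genes of this list were higher, the RAP1 inhibitor Rasa3, the adaptor Skap1 and the cytohesin-binding Cytip besides, where 6.31% of all genes tested were called. Rasa3 stood at 532.1 ± 206.4 against 278.8 ± 45.2 CPM in WT, Skap1 at 304.6 ± 46.9 against 214.4 ± 8.98 CPM and Cytip at 289.0 ± 63.1 against 188.3 ± 25.1 CPM (SD, n = 3 each). Their adjusted p was 0.169, 0.117 and 0.15 without the block and 0.0396, 0.0496 and 0.0203 with it (edgeR). These 3 genes, Itga5 and Itgb3 were picked after their values were seen. Talin 1 (Tln1) and kindlin-3 (Fermt3) did not pass the test, with log2 fold changes of -0.30 (95% interval -0.67 to 0.078) and 0.026 (-0.28 to 0.33).

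**Figure D4:**
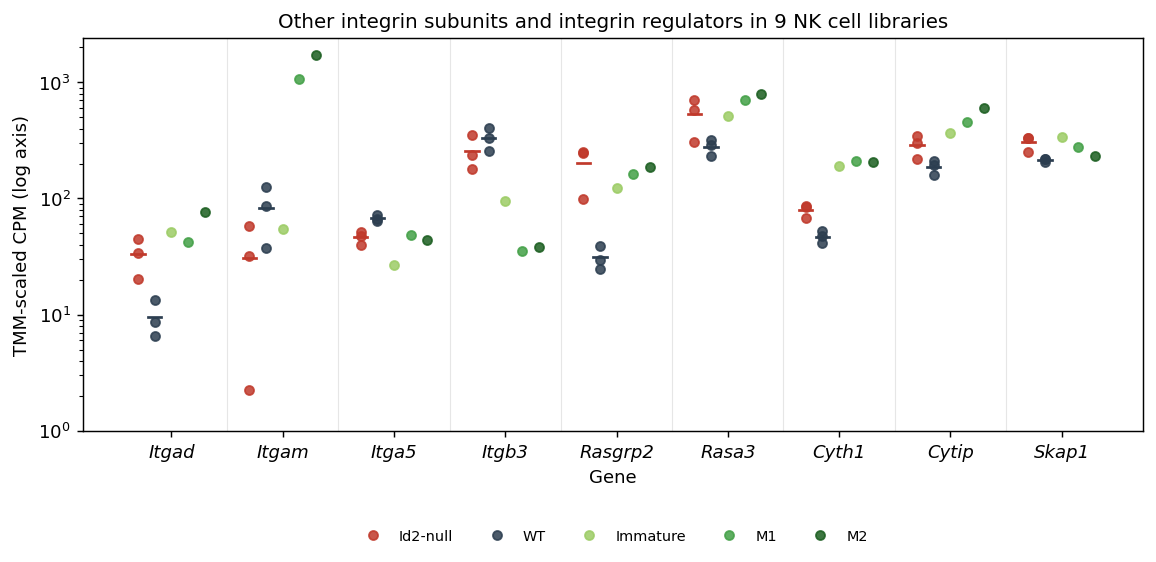
TMM-scaled CPM on a log axis for other integrin subunit genes and integrin regulators, with 1 point per library and a bar at each genotype's mean. Itgad, Rasgrp2, Cyth1, Skap1 and Cytip stand higher and Itga5 lower in Id2-null than in WT cultures without overlap, as 20.4% of all genes tested do. Of these, Itgad, Rasgrp2 and Cyth1 passed the test. Itgam runs from 2.25 CPM in Id2-null replicate 3 to 1723.4 CPM in M2.

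Of 24 integrin ligand genes only 6 were tested, and edgeR, DESeq2 and limma voom each called 0, with 2 at an unadjusted p under 0.05 in edgeR. These were the pair with the highest levels in the cultures. Spp1, which encodes osteopontin, a ligand of CD51 and CD49d integrins, stood at 242.0, 250.8 and 958.5 CPM in Id2-null against 1330.5, 2058.8 and 1760.7 CPM in WT cultures. The genotypes did not overlap, and Id2-null replicate 3 was nearest to WT. The log2 fold change was -1.82 (95% interval -3.06 to -0.58, adjusted p = 0.143, edgeR), and Spp1 was called lower with the replicate block (0.0317), without Id2-null replicate 3 (9.07e-05) and without replicate 3 of both genotypes (2.46e-09). Tgfb1, whose latent form binds CD51 integrins, stood at 261.7 to 334.3 CPM in Id2-null against 380.3 to 430.2 CPM in WT cultures (adjusted p = 0.137, edgeR). Vcam1 and Fn1, which encode ligands of CD49d, had 0 counts in all 6 cultures and 183 to 921 and 48 to 112 counts in the sorted libraries. Vcam1 stood at 59.9, 44.3 and 231.4 CPM in Immature, M1 and M2, and Fn1 at 12.3, 15.2 and 28.1 CPM. The sum of 8 myeloid markers there was 188.3, 207.8 and 925.1 CPM. The part of other blood cells in these 2 transcripts was not tested. Cdh1, the E-cadherin that CD103 binds, stood at 58.1 to 158.1 CPM in Id2-null against 46.1 to 102.4 CPM in WT cultures (adjusted p = 0.546, edgeR). Without replicate 3 of both genotypes Cdh1 was called higher (log2 fold change 0.68, adjusted p = 0.0131, edgeR), where 9.16% of all genes tested were called. Vcam1, Fn1 and Cdh1 were chosen after their values were seen, as ligands of 2 of the 10 integrin genes.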

How the data were processed

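Per the file headers, the deposited values are unnormalized read counts for Entrez identifiers, listed beside a length for each gene. Subread, featureCounts and limma were used by the authors against GRCm38 (mm10), per the submitters' processing notes, while the sources used here do not give versions, annotation, strand setting or multi-mapping. Symbols and coordinates came from RefSeq for GRCm38.p6 (25275 of 27179 identifiers, all 10 members). In GENCODE M21 (also GRCm38), Itga4 shares 8.04% of its exon bases with Cerkl on the opposite strand, which stood at no more than 5.57 CPM in any library. Itga1 shares 3.68% of its exon bases with Gm49395 on the same strand, and Itgav 5.90% with Gm13684 on the opposite strand. Neither of these was found by symbol among the genes counted.

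The 6 cultures were compared with edgeR 4.0.16 in R 4.3.3, with filterByExpr (minimum count 10), TMM, genotype alone and no robust estimation, over 11022 genes. The edgeR adjusted p-values are Benjamini-Hochberg over these genes. Alternatives were DESeq2 1.42.0, limma 3.58.1 voom, other scalings, no filter, a replicate block and left-out replicates, and, added after seeing the data, robust estimation. The scripts were tested on simulated data. Levels were scaled over 9 libraries with 11433 genes. With library sizes alone as scaling, the median log2 difference of all genes between sorted libraries and WT cultures moved from 0.00 to -0.16.

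Same-numbered Id2-null and WT libraries deviated together from their genotype means. Their r was 0.359, 0.245 and 0.422 for replicates 1 to 3 across genes, which are not independent. Between replicates 1 and 2 of different genotypes r was 0.128 and 0.191. Between replicate 3 and a differently numbered library of the other genotype it was -0.404 to -0.265. The main fit did not pair the libraries, and the replicate block, which does, was an alternative. The labels do not give a pairing by number.

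Named were the 10 members, called genes of 3 lists (other subunits, switch and adaptors, ligands, with the 2 highest where none was called), Itgam and the 3 nearest patterns. Tln1 and Fermt3, and the genes said above to be picked after their values were seen, were named outside this rule. Members and lists were chosen with earlier results of these data known. Lists of markers for erythroid, stromal and endothelial cells and for ILC2 and ILC3 summed to at most 28.9, 166.1 and 6.03 CPM in any library, and that of platelets to 12.3 CPM.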

Additional observations from a re-analysis of the deposited data

How the results depend on the processing

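Of 140 fold changes of the 10 integrin genes under other settings, 118 kept their direction and their side of the threshold, 9 lost and 4 gained the call, and 9 changed sign, all of these in genes that were not called. The sign changes were Itga2 without Id2-null replicate 3 (range without any 1 replicate -0.37 to 0.16), Itgax without Id2-null replicate 1 and WT replicate 2 (-0.14 to 0.23), Itgb1 without Id2-null replicate 3 (-0.059 to 0.24) and Itgb7 without Id2-null replicate 3 and WT replicate 2 (-0.29 to 0.11). Without replicate 3 of both genotypes Itga2 was at 0.061, Itgb1 at -0.072 and Itgb7 at 0.03. The 10 genes gave 3 calls, and 1 to 4 without any 1 replicate. The whole comparison gave 370 calls, 578 with DESeq2, 696 with the replicate block, 1014 without replicate 3 of both genotypes and 105 to 624 without any 1 replicate. The cause was not tested. Without replicate 3 of both genotypes there were 5 calls among the 10 genes, 3 among other subunits, 6 among switch and adaptor genes and 2 among ligands. With the replicate block these last 3 lists gave 2, 5 and 1 calls, and without any 1 replicate 0 to 1, 0 to 6 and 0 to 1. Limma voom gave 0 calls among other subunits, and the switch and adaptor list gave 4 with DESeq2 and 1 with library sizes alone. Apart from the calls given above, the block changed no other call among the genes of these lists. A threshold of 1.5-fold in place of 2-fold between Immature and M2 gave 3 genes (Itgae, Itgb2 and Itgb7) in place of 0. The share of all genes past 1.5-fold was not taken, so this count has nothing to be read against. Depth limits Itgae and Itga1 in the sorted libraries, at 11 to 23 and 39 to 81 counts.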
